A study of Homo sapiens with 647 samples.

Results

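FIIN-3, a covalent inhibitor of the FGF receptor kinases, was tested on top of FGF2, a ligand of these receptors, in the control lines of the series: the libraries labelled FIIN-3+FGF2 were set against those labelled FGF2 in the parental and GFP lines, with the line as a factor. The comparison held 24 of the 647 libraries of the series, 6 in each of its 4 groups. All came from T47D, an estrogen receptor positive luminal breast cancer cell line grown in 96-well plates, plated 48 h before the drugs were added and lysed after 24 h of treatment. The parental line carried no named insert. The GFP line carried green fluorescent protein from a lentiviral pLX307 vector, and the labels do not say whether it was a clone or a pool. In the FGF2 groups both lines received FGF2 alone, at a dose not named in the labels. In the FIIN-3+FGF2 groups they received FIIN-3 at 100 nM together with FGF2. Groups used for reference were DMSO in the same 2 lines (12 libraries), fulvestrant (100 nM), a degrader of the estrogen receptor, plus FGF2 without (12 libraries) and with FIIN-3 (11 libraries) in the same 2 lines, and FGF2 without and with FIIN-3 in lines carrying FGFR1 (6 and 6 libraries) or wild-type FGFR2 (6 and 5 libraries) from the same vector. Whether replicate libraries came from separate cultures is not stated, so p-values measure only the spread between these libraries, which may be technical.

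FGF ligands bring FGF receptors together on the cell surface, with heparan sulfate as a cofactor, and the receptors pass the signal through the adaptor FRS2 to RAS, RAF, MEK and ERK and to PI3K and AKT. ERK switches on a set of genes that damp the same pathway, among them the DUSP phosphatases, the Sprouty and SPRED proteins and the PEA3 group of ETS factors, and their mRNA is widely read as a gauge of pathway activity. In luminal breast cancer cells FGF signalling is known to drive cell division and to lower dependence on the estrogen receptor. FIIN-3 is also known to bind the EGF receptor.

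Total counts ran from 6627617 to 11078815 in the 12 FGF2 libraries and from 3630065 to 11121900 in the 12 FIIN-3+FGF2 libraries. The library of 3630065 was parental FIIN-3+FGF2 replicate 2, which also had the lowest mitochondrial share, 16.3% of its counts against 22.1 to 32.3% in the other 23. Cut into ranges of 96, the title numbers put 4 libraries of each arm in range 1 and 4 of each in range 4, but the other 4 FGF2 libraries in range 2 and the other 4 FIIN-3+FGF2 libraries in range 3, where range and treatment cannot be told apart. The labels do not say what a range stands for. For the main comparison, the fit with range as a term is given where it ended a call given in the text or moved the count of a list. Levels are given as normalized CPM (library-size-scaled counts after TMM normalization), as the median of a group with its lowest and highest library in parentheses, and changes as log2 fold changes ± standard error from edgeR's quasi-likelihood test. A gene is called, and rose or fell, where its adjusted p (Benjamini-Hochberg, all genes of the fit) was under 0.05. All 9 luminal epithelial markers had reads in every arm, with a summed level of 16860 to 27970 CPM with FGF2 and 31050 to 69940 with FIIN-3+FGF2. Of the fibroblast, blood and endothelial markers, only COL1A1 and LUM passed the filter on low counts, and neither was called. The 6 fibroblast markers summed to 10.6 to 28.4 CPM with FGF2 and 11.7 to 26 with FIIN-3+FGF2.

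With FIIN-3 all 35 tested genes of the G2/M list, 33 of 35 of the G1/S list and 6 of 11 of the ERK feedback list fell, and 11 of 20 genes of luminal identity and 8 of 18 of the PI3K and FOXO list rose. In bulk libraries such as these, fewer cells that express a gene and less of its RNA per cell cannot be told apart. Of 12934 genes tested, 3227 (24.9%) were called, 1611 higher (12.5%) and 1616 lower (12.5%), around a median change of all genes of -0.001 on the log2 scale. Changes of more than 2-fold were mostly downward, with 3.48% of all genes lower and 1.06% higher. For 2.85% of genes the ranges of the arms did not overlap, with every FIIN-3 library above every FGF2 library for 0.974% and every one below for 1.87%. The counts differed under other settings. A term for range gave 1583 genes higher and 1445 lower. When the 2 libraries with neighbouring title numbers within each group, which resembled each other more than other library pairs did, were summed into 1, 838 genes were called higher and 1068 lower. In limma on the deposited log2(TPM + 1) values, the split was 797 higher to 2823 lower, with a median change of all genes of -0.13, and after median centring 1913 to 1316. No gene of 13244 (0.0%) differed between the GFP and parental lines in its response to FIIN-3 by edgeR, where 1.49% had an unadjusted p under 0.05. DESeq2 also called 0 and edgeR without a filter on low counts called 2.

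Of 20 genes of ERK feedback and ETS output 11 passed the filter; 6 fell and 3 rose, where 12.5% of all genes went each way, and the median change of those tested was -0.82. DUSP6, the phosphatase that removes phosphate from ERK in the cytoplasm, stood at 12 (9.4 to 15.1) CPM with FGF2 and at 2.16 (0.801 to 4.91) with FIIN-3. All 12 FIIN-3 libraries were below all FGF2 libraries, and the change was -2.48 ± 0.22 (adjusted p = 4.69e-10). DUSP4, its nuclear relative, went from 60.3 (50.5 to 71.9) to 16.4 (12.8 to 21.2) CPM, again with no overlap (-1.85 ± 0.09, adjusted p = 9.85e-15). SPRED2, which keeps RAF from being activated by RAS, went from 18.8 (13.1 to 22.5) to 7.91 (3.54 to 9.96) CPM, with all 12 FIIN-3 libraries below (-1.26 ± 0.14, adjusted p = 2.1e-08). EPHA2, an ephrin receptor kinase, and DUSP5, another nuclear ERK phosphatase, were read at low levels and fell by 1.71 and 1.06 on the log2 scale, with overlapping arms. CCND1, the gene of cyclin D1, fell from 126.3 (73.7 to 147.8) to 65.7 (45.9 to 107.9) CPM (-0.68 ± 0.15, adjusted p = 0.000937), and 7 of 12 FIIN-3 libraries were below all FGF2 libraries. Against this direction, SPRY1 (0.59 ± 0.14), a Sprouty inhibitor of receptor signalling, and IER3 (0.38 ± 0.08) rose, as did EPHA4 (0.31 ± 0.11). With range as a term 5 genes of the list fell and 1 rose, and the calls of DUSP5, SPRY1 and EPHA4 were lost (adjusted p = 0.0701, 0.0751 and 0.135). The EPHA4 call was also lost when any of 7 single libraries was left out (highest adjusted p = 0.0795, without GFP FIIN-3+FGF2 replicate 6). SPRY2, at 1.49 CPM with FGF2 and 0.630 with FIIN-3 by median, did not pass the test (adjusted p = 0.0657).

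The other 9 genes of the list were below the filter on low counts, and 7 of the 9 had more reads in FGF2 than in FIIN-3 libraries. The 4 described first were singled out after their values were seen. SPRY4, a further Sprouty inhibitor, had 2 to 26 reads in each of the 12 FGF2 libraries, and 2 reads in 1 of the 12 FIIN-3 libraries. ETV4, an ETS factor of the PEA3 group, had 5 to 19 reads in each FGF2 library and 2 reads in 1 FIIN-3 library. ETV5, of the same group, had 54 reads in 11 FGF2 libraries and 4 in 1 FIIN-3 library. ETV1, the third member of the group, had 2 to 23 reads in each FGF2 library and up to 4 in 8 FIIN-3 libraries. In edgeR without the filter the adjusted p was 8.15e-12 for SPRY4, 1.34e-11 for ETV4, 0.000365 for ETV5 and 0.000253 for ETV1. In the 12 DMSO libraries SPRY4 had 23 reads and ETV4 had 13. SPRED1, a relative of SPRED2, had up to 20 reads in an FGF2 and up to 10 in a FIIN-3 library and passed without the filter (adjusted p = 0.00185). FOSL1, LIF, SPRED3 and IL17RD did not.

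**Figure D1:**
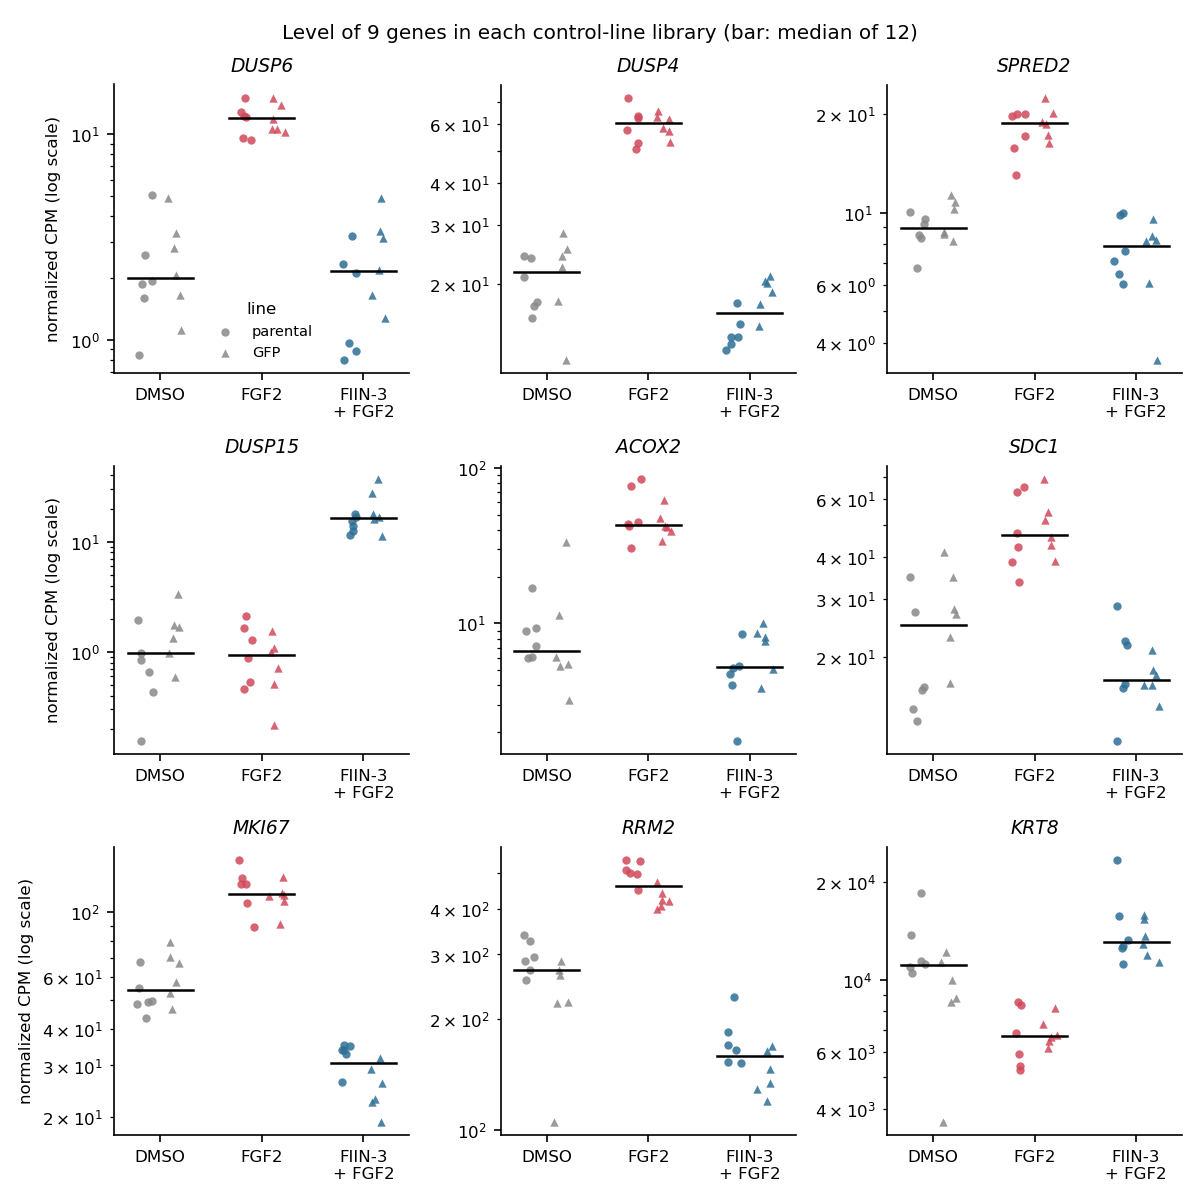
Normalized CPM on a log axis for 9 genes in each of 36 control-line libraries (circles, parental; triangles, GFP; bars, medians of 12 libraries) with DMSO, FGF2 or FIIN-3+FGF2. For each of the 9 genes the FGF2 and FIIN-3+FGF2 points do not overlap, as for 2.85% of all genes tested, and DUSP15 sits near its DMSO level with FGF2 and far above it with FIIN-3. The 9 are a selection of genes named in the text, others of which, such as CCND1, have overlapping arms.

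Among the 12 genes of largest rise, DUSP15, a membrane-anchored dual specificity phosphatase, stood apart in size. It was read at 0.974 (0.155 to 3.32) CPM with DMSO, 0.943 (0.219 to 2.1) with FGF2 and 16.3 (11.2 to 37.4) with FIIN-3. Every FIIN-3 library was above every FGF2 and every DMSO library, and the change against FGF2 was 4.12 ± 0.26 (adjusted p = 6.9e-13). FAM225A, a long non-coding RNA, went from 3.66 (2.06 to 5.27) to 11.8 (6.85 to 23.6) CPM without overlap (1.7 ± 0.18). ARRDC3, an arrestin-like adaptor that directs membrane receptors to degradation, went from 13.3 (5.43 to 18.7) to 47.1 (13.4 to 70.1) CPM (1.85 ± 0.21), with 11 of 12 FIIN-3 libraries above all FGF2 libraries. LRRC8D, a subunit of volume-regulated anion channels, and SLC43A2, a transporter of neutral amino acids, rose by 1.61 ± 0.17 and 1.48 ± 0.27. SYBU, an adaptor between kinesin and its cargo, and KLHL24, an adaptor of a ubiquitin ligase and a known FOXO target, rose by 1.63 ± 0.19 and 1.45 ± 0.15. SELENBP1, a selenium-binding methanethiol oxidase, went from 69.4 (62.7 to 100.8) to 221.3 (176.7 to 301.3) CPM (1.59 ± 0.08), with all 12 FIIN-3 libraries above. C1orf64 (1.67 ± 0.14), BCAS1 (1.45 ± 0.10) and the keratin KRT4 (1.49 ± 0.15) were also among the 12, each with no overlap of the arms.

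ACOX2, a peroxisomal oxidase of branched-chain fatty acids and bile acid intermediates, fell most. It was at 42.8 (30.5 to 85.3) CPM with FGF2 and at 5.25 (1.76 to 10) with FIIN-3, all 12 libraries below (-3.04 ± 0.22, adjusted p = 7.81e-12). The other 11 genes of largest fall were genes of chromosomes and the spindle. They were the helicase PIF1 (-2.27 ± 0.29), the linker histone HIST1H1E (-2.24 ± 0.22), the histone variant H2AFX (-1.95 ± 0.19), the topoisomerase TOP2A (-2.0 ± 0.22), the kinetochore proteins BUB1 (-2.1 ± 0.24) and KNL1 (-2.01 ± 0.15), the kinesins KIF18B (-2.03 ± 0.14) and KIF14 (-2.0 ± 0.23), the spindle proteins DLGAP5 (-1.94 ± 0.24) and FAM83D (-1.92 ± 0.21), and the proliferation antigen MKI67 (-2.02 ± 0.10). Arms overlapped for KIF14 and FAM83D and for no other of these 11. HIST1H1E has closely alike copies among which reads could be split.

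**Figure D2:**
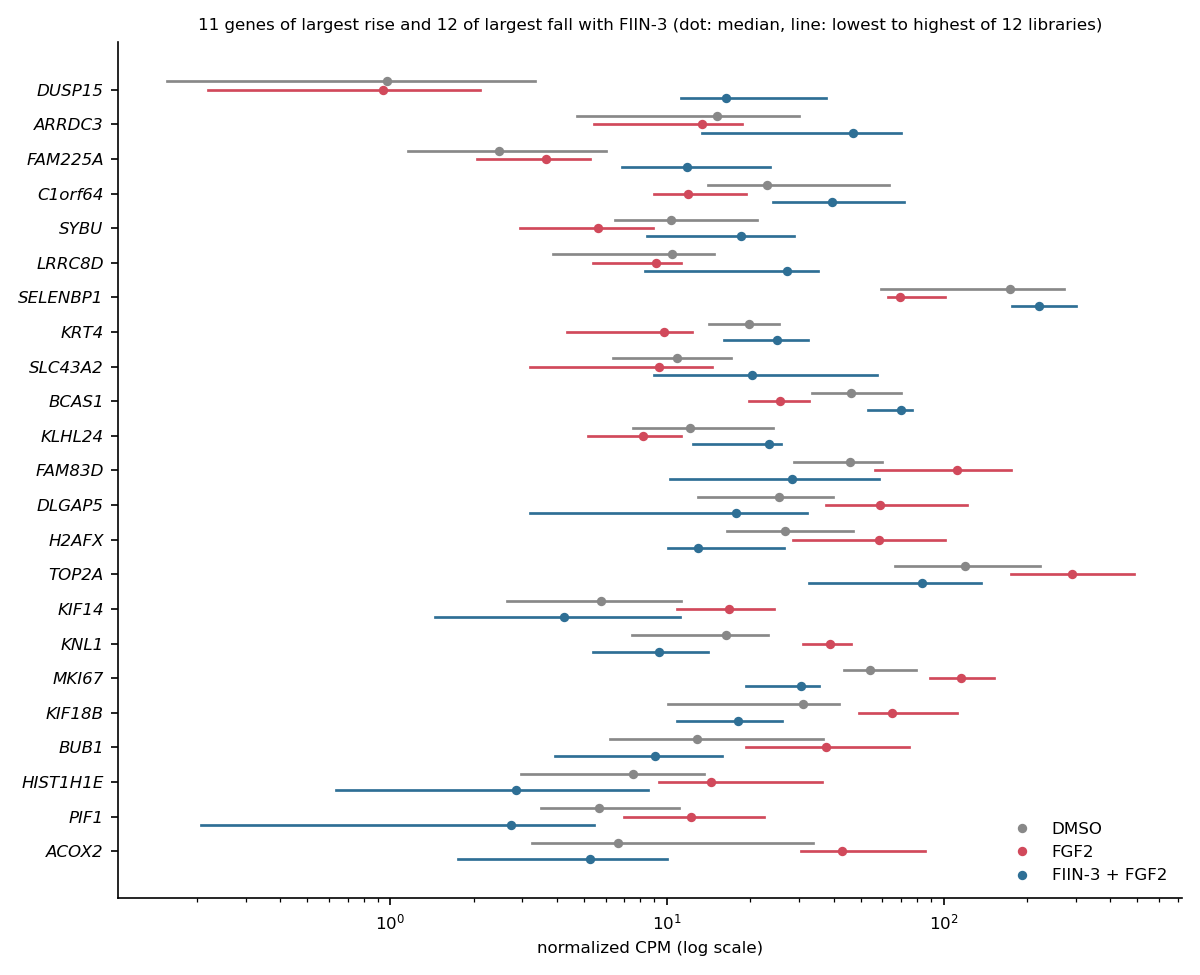
Median (dot) and lowest to highest (line) normalized CPM, on a log axis, of 11 of the 12 genes of largest rise and the 12 of largest fall in 12 libraries each of DMSO, FGF2 and FIIN-3+FGF2. For each of the falling genes the FGF2 dot lies to the right of both other dots, whereas DUSP15, FAM225A, ARRDC3 and LRRC8D have overlapping FGF2 and DMSO lines and a FIIN-3 dot to the right of both.

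Of 27 genes of FGF receptors, ligands and adaptors 18 were tested, 2 rose and 5 fell, with a median of -0.14. The share called was 38.9%, against 24.9% of all genes. With range as a term, however, 5 rose and 1 fell, with a median of 0.04. FGFR4 (0.29 ± 0.16), FGFR2 (0.11 ± 0.19), FGFR1 (-0.36 ± 0.20) and FGFR3 (-0.59 ± 0.36) did not pass the test, at median levels with FGF2 of 23.3, 14.6, 9.7 and 1.62 CPM. SDC1, syndecan 1, a heparan sulfate proteoglycan of the cell surface, went from 46.8 (33.8 to 69.3) to 17.1 (11.1 to 28.4) CPM with all 12 FIIN-3 libraries below (-1.44 ± 0.14, adjusted p = 3.78e-09). SDC4, syndecan 4, moved the other way, from 160.8 (126.4 to 216.8) to 243.2 (181.4 to 327.4) CPM (0.51 ± 0.10, adjusted p = 0.000391). FGF12, an FGF family member that stays inside the cell, rose from 4.02 (2.4 to 8.28) to 9.11 (6.0 to 13.3) CPM (1.08 ± 0.17). PTPN11, the phosphatase SHP2 that carries the signal to RAS, was called lower by 0.57 on the log2 scale (adjusted p = 0.0171). The falls of the adaptor GAB1, the phospholipase PLCG1 and the glypican GPC1 were called at adjusted p = 0.0447, 0.0382 and 0.0443. These 4 calls were lost with range as a term (adjusted p = 0.157 to 0.64) and with neighbouring libraries summed (0.092 to 0.121). Those of GAB1, PLCG1 and GPC1 were also lost without any of 14, 11 and 17 single libraries respectively (highest adjusted p = 0.0823 without GFP FIIN-3+FGF2 replicate 2, and 0.0955 and 0.0983 without parental FGF2 replicate 1).

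Of the ERBB receptors, ligands and feedback genes, 12 were tested, 2 rose and 2 fell (33.3% called, against 24.9% of all genes). ERBB2, the receptor kinase HER2, went from 65.2 (46.4 to 125.5) to 110.05 (89.6 to 175.9) CPM (0.72 ± 0.13, adjusted p = 8.88e-05), with 4 of 12 FIIN-3 libraries above all FGF2 libraries. LRIG1, which sends ERBB receptors to degradation, rose by 0.74 ± 0.12, with 11 of 12 above. ERRFI1, an inhibitor of the EGF receptor kinase, was called lower by 0.86 and LRIG3 by 0.57 on the log2 scale. Both falls were lost with range as a term (adjusted p = 0.149 and 0.449) and in the parental line alone, and with the range term the list had 3 genes higher and 0 lower. EGFR, at 7.68 (3.21 to 10.3) CPM with FGF2 and 4.59 (1.91 to 9.79) with FIIN-3, and ERBB3, at 156.9 (110.8 to 244.7) and 204.6 (155.7 to 320.1), did not pass (adjusted p = 0.115 and 0.0548).

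The widest shift was in the cell cycle. All 35 genes of the G2/M and mitosis list were tested and all 35 fell, with a median of -1.60, against 12.5% of all genes. In 30 of them every FIIN-3 library was below every FGF2 library, against 1.87% of all genes. Many genes of this kind carry in their promoters a CHR element, the letters TTTGAA or TTCGAA, together with CCAAT boxes, which the DREAM and B-MYB complexes and the factor NF-Y are known to bind. The 4 promoters below belong to the 4 list members of smallest p that have 1 RefSeq start and a CHR match, with 1 chromosome left out of the choice. Capitals mark the CHR element and the CCAAT box on either strand. They run from 250 bases before to 50 after the RefSeq transcription start on build GRCh38.p14, which is not the build of the counts.
MKI67, chr10:128126374-128126673, minus strand: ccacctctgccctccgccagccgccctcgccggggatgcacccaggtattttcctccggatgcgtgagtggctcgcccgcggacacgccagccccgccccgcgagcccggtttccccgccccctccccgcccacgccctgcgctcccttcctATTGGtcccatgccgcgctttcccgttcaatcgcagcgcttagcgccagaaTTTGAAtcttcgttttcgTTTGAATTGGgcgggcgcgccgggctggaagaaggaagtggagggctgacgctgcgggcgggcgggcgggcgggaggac
PLK1, chr16:23678639-23678938, plus strand: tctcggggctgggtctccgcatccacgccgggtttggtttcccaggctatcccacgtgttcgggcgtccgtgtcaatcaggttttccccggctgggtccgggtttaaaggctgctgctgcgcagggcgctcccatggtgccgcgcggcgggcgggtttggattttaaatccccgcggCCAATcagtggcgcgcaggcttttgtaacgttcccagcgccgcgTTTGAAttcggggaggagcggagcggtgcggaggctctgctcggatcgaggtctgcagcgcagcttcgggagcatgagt
CENPF, chr1:214602945-214603244, plus strand: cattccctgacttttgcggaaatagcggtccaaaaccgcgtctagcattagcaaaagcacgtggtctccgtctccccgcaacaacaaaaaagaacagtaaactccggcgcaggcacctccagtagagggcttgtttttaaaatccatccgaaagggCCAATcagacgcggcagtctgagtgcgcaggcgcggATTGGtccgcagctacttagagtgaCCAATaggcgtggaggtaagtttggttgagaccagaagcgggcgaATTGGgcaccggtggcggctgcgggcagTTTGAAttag
NUSAP1, chr15:41332631-41332930, plus strand: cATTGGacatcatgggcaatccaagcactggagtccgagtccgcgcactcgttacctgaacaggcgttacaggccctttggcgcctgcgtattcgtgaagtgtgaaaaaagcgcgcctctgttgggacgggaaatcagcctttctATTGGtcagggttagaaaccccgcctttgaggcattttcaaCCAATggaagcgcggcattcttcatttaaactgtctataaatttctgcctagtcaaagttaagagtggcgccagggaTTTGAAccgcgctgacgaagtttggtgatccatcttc
Counted from the start site, the CHR match began at base -29 in both MKI67 and PLK1, with a second in MKI67 at -47, and after the start, at 41 in CENPF and 14 in NUSAP1. Over the list, 29 genes matched 36 RefSeq promoters, and 23 of these (63.9%) held a CHR element in either form and 28 (77.8%) a CCAAT box. Among all 35116 RefSeq promoters of this length the shares were 16.4% and 34.6%. In the other lists with matched promoters the CCAAT share ran from 25% (ERK feedback) to 69.2% (G1/S), so a high share was not particular to this list. A match describes the letters and shows no binding.

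MKI67, the antigen Ki-67 of dividing cells, was read at 115.1 (88.9 to 151.2) CPM with FGF2 and 30.6 (19.3 to 35.3) with FIIN-3 (-2.02 ± 0.10, adjusted p = 9.85e-15). The highest FIIN-3 library lay well under the lowest FGF2 library and under the lowest DMSO library, at 43.5 CPM. PLK1, the polo-like kinase of mitotic entry, went from 232.5 (184.97 to 331.3) to 69.6 (56.2 to 92.1) CPM (-1.75 ± 0.09). CENPF, a kinetochore protein, went from 272.8 (234.2 to 326.6) to 98.9 (80.2 to 113.99) CPM (-1.45 ± 0.08), and NUSAP1, a microtubule bundler of the spindle, from 244.96 (200.04 to 304.1) to 80.9 (54.5 to 99.3) (-1.58 ± 0.09). None of these 4 had overlapping arms, and the adjusted p was at most 1.29e-13.

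Of 35 tested genes of the G1/S transition and DNA replication 33 fell, against 12.5% of all genes, and none rose, with a median of -1.04. The fit with range as a term had 31 lower. In 16 every FIIN-3 library was below every FGF2 library, against 1.87% of all genes. RRM2, the regulated subunit of ribonucleotide reductase, went from 462.1 (398.96 to 544.1) to 158.2 (119.3 to 229.9) CPM (-1.55 ± 0.08, adjusted p = 9.85e-15). CDC45, part of the replicative helicase, went from 54.9 (46.1 to 59.4) to 26.9 (18.4 to 38.6) CPM (-1.11 ± 0.10), and BRCA1, a repair factor, from 53.8 (34.4 to 66.1) to 20 (12.1 to 26.8) (-1.45 ± 0.14). All 3 had no overlap. In the promoters of this list, which matched for 28 genes with 39 promoters, an E2F site (TTTGGCGC or TTTCCCGC, either strand) was found in 16, against 2.27% of all RefSeq promoters and 5.56% of those of the G2/M list. The CHR element was in 7.69% of them.

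The brakes of the cycle did not move as a block: of 15 tested brakes and D cyclins 7 fell and 3 rose. The share called was 66.7%, against 24.9% of all genes. The fit with range as a term had 6 lower and 3 higher, with a list median of -0.155 against -0.53 without it. CDKN1A, the inhibitor p21, fell from 47.2 (39.9 to 56.4) to 27.6 (22.2 to 33.6) CPM without overlap (-0.80 ± 0.09, adjusted p = 3.26e-08), as did CCND3, cyclin D3, from 115.8 (100.7 to 145.8) to 67.8 (54 to 83.6) (-0.81 ± 0.08). The inhibitors CDKN2C (-0.92 ± 0.19) and CDKN2D (-0.78 ± 0.22) and the pocket protein RBL1 (-1.46 ± 0.22) fell with overlapping arms, as did CCND1, given above. RB1 was called lower (-0.62 ± 0.22), and the call was lost with range as a term (adjusted p = 0.623), with libraries summed (0.143) and without any of 11 single libraries (highest adjusted p = 0.0901, without parental FGF2 replicate 2). Among antiproliferative genes, TOB1 went from 407.8 (295.1 to 483.9) to 833.2 (603.6 to 1127) CPM without overlap (1.07 ± 0.09, adjusted p = 2.98e-10). BTG1 rose from 24 (12.8 to 52.9) to 64.8 (47.1 to 113.3) CPM (1.35 ± 0.15), with 11 of 12 FIIN-3 libraries above, and BTG2 by 0.62 ± 0.22, a call lost with libraries summed (adjusted p = 0.0942) and without any of 13 single libraries (highest adjusted p = 0.0726, without GFP FIIN-3+FGF2 replicate 6). CDK4 (-0.04 ± 0.10) and CDK6 (-0.53 ± 0.32), the kinases that D cyclins bind, did not pass.

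**Figure D3:**
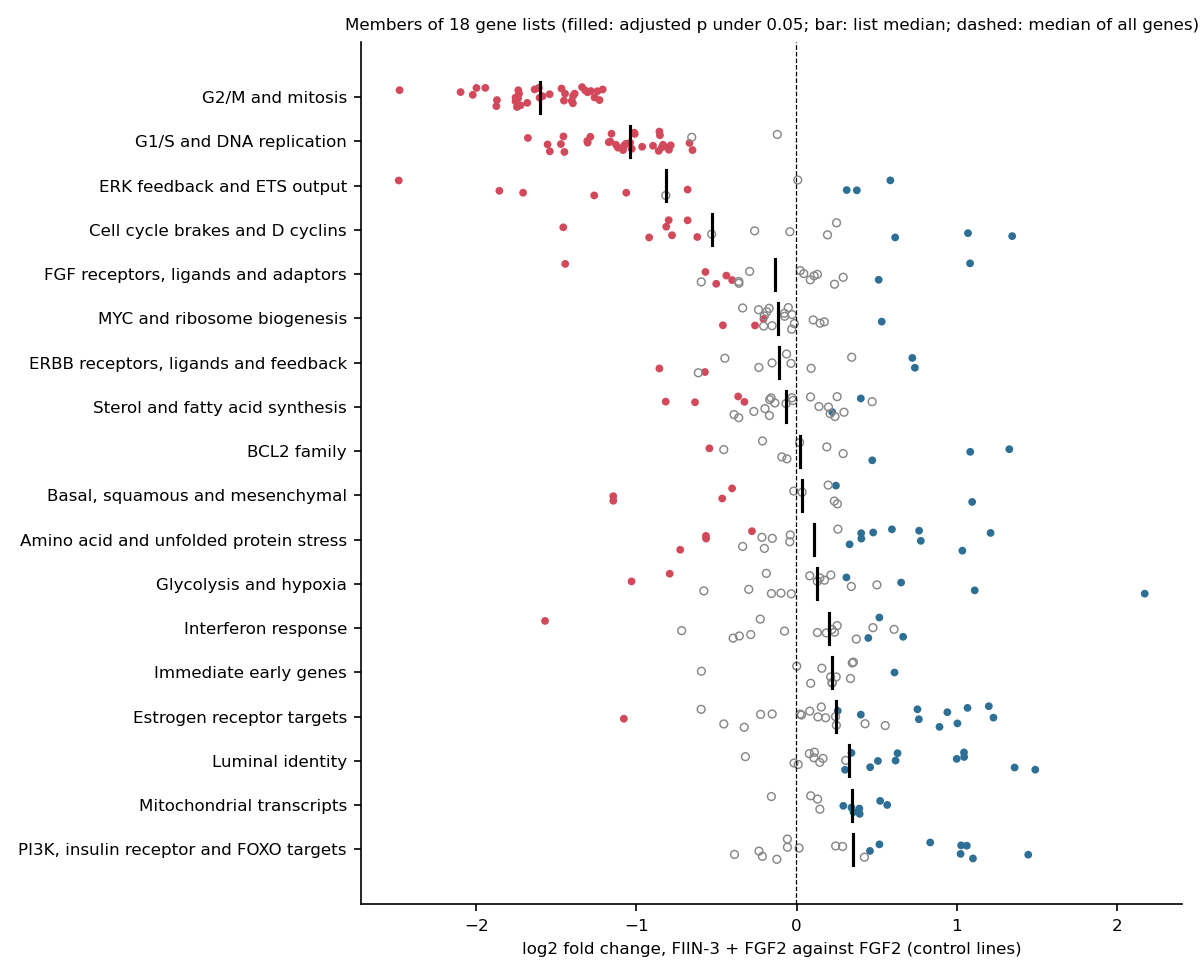
Log2 fold change of FIIN-3+FGF2 against FGF2 for each tested member of 18 gene lists (filled points passed an adjusted p of 0.05, blue higher and red lower; open points did not; bars are list medians and the dashed line is the median of all genes). Points of the G2/M and G1/S lists lie to the left of 0 and most filled points of the luminal, estrogen receptor and FOXO lists to its right.

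Of 20 tested genes of luminal identity 11 rose, against 12.5% of all genes, and none fell, with a median of 0.32. In 5 every FIIN-3 library was above every FGF2 library, against 0.974% of all genes. With range as a term 10 rose and 1 fell. The summed luminal markers given above include KRT8, also a gene of this list, and so are not separate support. With DMSO they summed to 15190 to 58670 CPM. ELF3, an epithelial ETS factor, went from 43.9 (33.3 to 49.3) to 109.4 (95.2 to 130.7) CPM (1.36 ± 0.08, adjusted p = 2.42e-13), above all FGF2 and all DMSO libraries, the highest of which stood at 85.1. ELF5, the ETS factor of luminal alveolar cells, went from 89.2 (67.3 to 100.4) to 181.9 (123.7 to 227.2) CPM (1.04 ± 0.09). KRT8, a luminal keratin with many pseudogene copies that may share its reads, went from 6703 (5275 to 8556) to 13024 (11211 to 23406) CPM (1.05 ± 0.11, adjusted p = 1.99e-08), and KRT4 from 9.74 (4.36 to 12.3) to 25 (16.1 to 32.3) (1.49 ± 0.15). None of the 4 overlapped.

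Of 26 tested estrogen receptor targets 10 rose and 1 fell, where 12.5% of all genes went each way, with a median of 0.25. The fit with range as a term had 11 higher and 0 lower. SERPINA6, which encodes corticosteroid-binding globulin, went from 326.7 (226.98 to 408.96) to 720.7 (484.5 to 1343) CPM (1.23 ± 0.15, adjusted p = 1.31e-07). IGFBP5, an IGF-binding protein, went from 294.6 (232.3 to 334.7) to 530.8 (390.9 to 694.6) CPM (0.89 ± 0.10), and CXCL12, a chemokine, from 31.5 (21.8 to 47.9) to 60.6 (55.4 to 72.9) (0.94 ± 0.11). These 3 were the ones without overlap, against 2.85% of all genes. SCUBE2 (1.07 ± 0.15), SUSD3 (1.2 ± 0.30), PDZK1 (0.76 ± 0.19), TPD52L1 (0.40 ± 0.11) and STC2 (0.26 ± 0.08) rose with overlapping arms, of which the calls of STC2 and TPD52L1 were lost with range as a term (adjusted p = 0.146 and 0.216) and with libraries summed (0.155 and 0.0964), and that of SUSD3 with libraries summed (0.0572). PGR, the progesterone receptor, rose from 80.8 (38.3 to 102.02) to 129.5 (63.8 to 216.6) CPM (0.75 ± 0.16, adjusted p = 0.000686). KCNK5 was called higher (1.0 ± 0.37) and lost the call with libraries summed (adjusted p = 0.123) and without any of 14 single libraries (highest adjusted p = 0.087, without parental FIIN-3+FGF2 replicate 1). ELOVL2, a fatty acid elongase read at about 1 CPM, was the gene called lower (-1.08 ± 0.33), a call lost with range as a term (adjusted p = 0.0899) and without the filter (0.068). Classical targets GREB1 (0.15 ± 0.17) and TFF1 (-0.60 ± 0.34) did not pass.

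In the list of PI3K, insulin receptor and FOXO genes 8 of 18 rose, against 12.5% of all genes, and none fell, with a median of 0.36. BCL6, a transcriptional repressor and known FOXO target, went from 39.8 (29 to 49.6) to 77.3 (66.7 to 98.5) CPM (1.02 ± 0.09, adjusted p = 4.87e-10). FBXO32, the ubiquitin ligase subunit atrogin-1, went from 30.7 (23.2 to 33.6) to 52.6 (34.3 to 66.6) CPM (0.83 ± 0.11), and KLHL24 from 8.21 (5.18 to 11.3) to 23.3 (12.4 to 25.8); all 3 had no overlap. PIK3IP1, a negative regulator of PI3K, rose from 5.14 (3.38 to 9.47) to 11.9 (7.15 to 18.5) CPM (1.1 ± 0.15), with 8 of 12 FIIN-3 libraries above.

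Other lists held single strong members within mixed movement. Of 12 tested immediate early genes 1 was called (8.3%, against 24.9% of all genes), and with range as a term 3 were. The one called was MYC, going from 21.9 (16.8 to 27.9) to 31.4 (24.6 to 44.6) CPM (0.61 ± 0.11, adjusted p = 7.96e-05). Of 20 genes of ribosome biogenesis, which MYC is known to drive, 20% were called, against 24.9% of all genes. The 1 that rose was GNL3, nucleostemin (0.53 ± 0.09), and 3 fell, BOP1, NCL and DKC1, calls lost without any of 2, 1 and 7 single libraries. With libraries summed 1 fell. The fit with range as a term had 4 lower, and the NCL call was lost there (adjusted p = 0.134). In glycolysis and hypoxia 4 of 19 rose and 2 fell (31.6% called, against 24.9% of all genes). The fit with range as a term had 4 higher and 3 lower, with a list median of -0.09 against 0.13 without it. NDRG1, a stress-induced growth inhibitor, went from 0.973 (0.204 to 2.24) to 4.88 (2.28 to 8.62) CPM (2.17 ± 0.29, adjusted p = 9.74e-07) and PFKP, a phosphofructokinase, from 128.8 (113.6 to 163.6) to 75.4 (65.6 to 101.2) (-0.79 ± 0.08), each without overlap. ADM, adrenomedullin, rose by 1.11 ± 0.16 and the aldolase ALDOC by 0.65 ± 0.11.

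Among genes of amino acid and unfolded protein stress 9 of 20 rose and 4 fell (65% called, against 24.9% of all genes). HERPUD1, of the degradation of misfolded proteins, went from 78.5 (69 to 102.8) to 139.5 (111.2 to 162.2) CPM (0.78 ± 0.08). DDIT4, the mTORC1 inhibitor REDD1, rose by 1.21 ± 0.16, the amino acid transporter subunit SLC3A2 by 0.48 ± 0.08 and the chaperone HSPA5 by 0.40 ± 0.08. In the BCL2 family 3 of 11 rose and 1 was called lower (36.4% called, against 24.9% of all genes). Those that rose were the BH3 proteins BMF (1.33 ± 0.25) and BIK (1.08 ± 0.21), which promote apoptosis, and BCL2L1 (0.47 ± 0.09), which opposes it. BAX, an effector of apoptosis, was called lower (-0.54 ± 0.18). That call was lost with range as a term (adjusted p = 0.051), with libraries summed (0.0915) and without the filter (0.0675). Of 18 interferon response genes 22.2% were called, near the share of all genes, with 3 higher and 1 lower (3 and 2 with range as a term). Among the 3 was IRF7, whose call was lost without any of 15 single libraries (highest adjusted p = 0.0907, without GFP FIIN-3+FGF2 replicate 1). The one that fell was OAS3, an oligoadenylate synthetase, from 84.7 (50.6 to 133.7) to 28 (18.4 to 39.2) CPM without overlap (-1.57 ± 0.14, adjusted p = 4.61e-10). Of 25 genes of sterol and fatty acid synthesis 24% were called, near the share of all genes, with 2 higher and 4 lower (5 and 3 with range as a term, 0 and 2 with libraries summed). The desaturases FADS2 (-0.82 ± 0.19) and FADS1 (-0.63 ± 0.13) had the smallest p of those that fell. Of 11 tested basal, squamous and mesenchymal genes 2 rose and 4 fell (2 and 2 with range as a term). The share called was 54.5%, against 24.9% of all genes. KRT15, a basal keratin, rose from 17.1 (13.2 to 20.8) to 37.4 (28.3 to 49.4) CPM (1.1 ± 0.11), and IVL, involucrin of the squamous envelope, and ANXA1 fell (-1.14 ± 0.15 and -1.14 ± 0.30). Mitochondrial transcripts were called higher for 7 of 11 genes, against 12.5% of all genes, with a median of 0.34. With libraries summed and in the parental line alone 0 of 11 were called, with medians of 0.33 and 0.30. Their share of counts was 22.1 to 30.8% with FGF2 and 16.3 to 32.3% with FIIN-3, and its part in the other results was not tested.

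Values against DMSO, whose libraries were shared by both of the following comparisons and whose counterparts were those of the main comparison, are set side by side. The DMSO libraries lay in title ranges 1, 2 and 3, and not in range 4, where both other arms had libraries. FGF2 shared ranges 1 and 2 with DMSO, and FIIN-3+FGF2 shared ranges 1 and 3. Differences from DMSO are therefore partly mixed with range. FGF2 alone against DMSO gave 3.7% of 12989 genes higher and 2.42% lower (6.12% in all), and FIIN-3+FGF2 against DMSO gave 0.583% of 12863 genes higher and 0.933% lower (1.52%, 75 and 120 genes). A single DMSO library, GFP replicate 6, had 1.28% of its counts on MT-RNR2, the mitochondrial 16S ribosomal RNA, against 8.7 to 26.4% in all other libraries of the 3 arms. Without it 5.31% were higher and 4.55% lower with FGF2, and 0.925% and 1.91% with FIIN-3+FGF2. With neighbouring libraries summed 3.37% and 0.707% were called in all. Range as a term gave 3.93% higher and 1.96% lower with FGF2, and 0.381% and 0.941% with FIIN-3+FGF2. The log2 change of DUSP6 was 2.22 for FGF2 against DMSO (adjusted p = 3.09e-07) and -0.23 for FIIN-3+FGF2 against DMSO (adjusted p = 0.827). For DUSP4 the values were 1.5 (adjusted p = 9.52e-09) and -0.34 (adjusted p = 0.241), and for ACOX2 2.35 (adjusted p = 2.37e-06) and -0.70 (adjusted p = 0.326). None of the 9 ERK feedback genes tested was called in FIIN-3+FGF2 against DMSO, near the 1.52% of all genes, and 1 was lower without the DMSO library that stood apart.

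Some cell cycle genes were lower with FIIN-3+FGF2 than with DMSO. The G2/M list had 32 of 35 genes higher in FGF2 against DMSO, with a median of 1.02, and 12 of 35 lower in FIIN-3+FGF2 against DMSO, with a median of -0.59 (22 without the DMSO library that stood apart). In the G1/S list 16 of 35 were higher in the former and 12 lower in the latter (26 without that library). Of all genes 3.7% were higher in the former and 0.933% lower in the latter (1.91% without that library). MKI67, at 54.2 (43.5 to 79) CPM with DMSO, changed by 1.02 ± 0.11 and -0.99 ± 0.12 (adjusted p = 9.88e-07 and 3.77e-05). IQGAP3, a scaffold of dividing cells, MXD3, a partner of MAX, and the kinesin KIF2C were also lower with FIIN-3+FGF2 than with DMSO, with changes of -1.04 ± 0.14, -1.02 ± 0.14 and -0.77 ± 0.11.

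A few genes rose above DMSO while FGF2 alone left them uncalled. DUSP15 changed by -0.34 ± 0.37 with FGF2 (adjusted p = 0.638) and by 3.79 ± 0.26 with FIIN-3+FGF2 (adjusted p = 1.6e-10), both against DMSO. LRRC8D was higher by 1.54 ± 0.21. GABARAPL1, an autophagy protein of the LC3 family, went from 17.4 (13.8 to 24.2) CPM with DMSO and 14.3 (10.6 to 20.4) with FGF2 to 33.9 (28.7 to 47.2) with FIIN-3+FGF2 (0.91 ± 0.12 against DMSO). PCLO, a large presynaptic scaffold protein, went from 19.4 (16 to 31.3) and 23 (17.2 to 33.8) to 52.6 (24.9 to 62.9) CPM (1.15 ± 0.15). No estrogen receptor target of 25 tested was called in FIIN-3+FGF2 against DMSO, which is near the share of all genes called there, 1.52%. Of 20 luminal genes 1, ELF3, was called (2 without the DMSO library that stood apart). FGF2 alone against DMSO had 6 of 27 and 6 of 20 lower, against 2.42% of all genes.

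FIIN-3 was also added to fulvestrant plus FGF2 in the same 2 lines, in 23 libraries that shared none with the main comparison. Their layout was alike, with title ranges 1, 2 and 4 without FIIN-3 and 1, 3 and 4 with it. A difference between ranges 2 and 3 would enter both comparisons, and its part in their overlap was not tested. There 3198 of 12950 genes were called (24.7%), 1412 higher (10.9%) and 1786 lower (13.8%). Over the 12709 genes tested in both, 2112 were called in both in the same direction, which was 66.2% of the calls without and 66.7% of the calls with fulvestrant, and 2 were called in opposite directions. Of the genes called without fulvestrant 98.2% had the same sign with it, against 72.0% of the genes not called. All 24 genes of largest change, 12 in each direction, were called with fulvestrant in the same direction. DUSP15 changed by 3.77 ± 0.23, DUSP6 by -2.73 ± 0.16, ACOX2 by -3.63 ± 0.35 and MKI67 by -2.06 ± 0.13. All 35 genes of each cell cycle list were lower, with medians of -1.50 for G1/S and -1.67 for G2/M.

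The response differed by fulvestrant for 13 of 13430 genes (0.0968%) in the test of the interaction, all with a more negative change in its presence (0.0372% with libraries summed and 0.268% with range as a term). CXCL12, a target of the estrogen receptor, went from 8.65 (4.32 to 10.1) CPM with fulvestrant plus FGF2 to 6.16 (4.25 to 8.29) with FIIN-3 added, where without fulvestrant it had risen; the difference of changes was -1.28 ± 0.18 (adjusted p = 2.96e-05). CDC45 fell from 48.8 (39.9 to 58.7) to 11.7 (6.75 to 16) CPM, a difference of changes of -0.98 ± 0.14 (adjusted p = 3.78e-05). MCM7, another part of the replicative helicase, differed by -0.66 ± 0.12 (adjusted p = 0.00241), a call lost with libraries summed (adjusted p = 0.153). SFXN2, a mitochondrial carrier, changed by 0.18 on the log2 scale without (adjusted p = 0.0478) and by -0.47 with fulvestrant (adjusted p = 3.9e-06), a difference of -0.64 ± 0.09 (adjusted p = 2.96e-05).

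**Figure D4:**
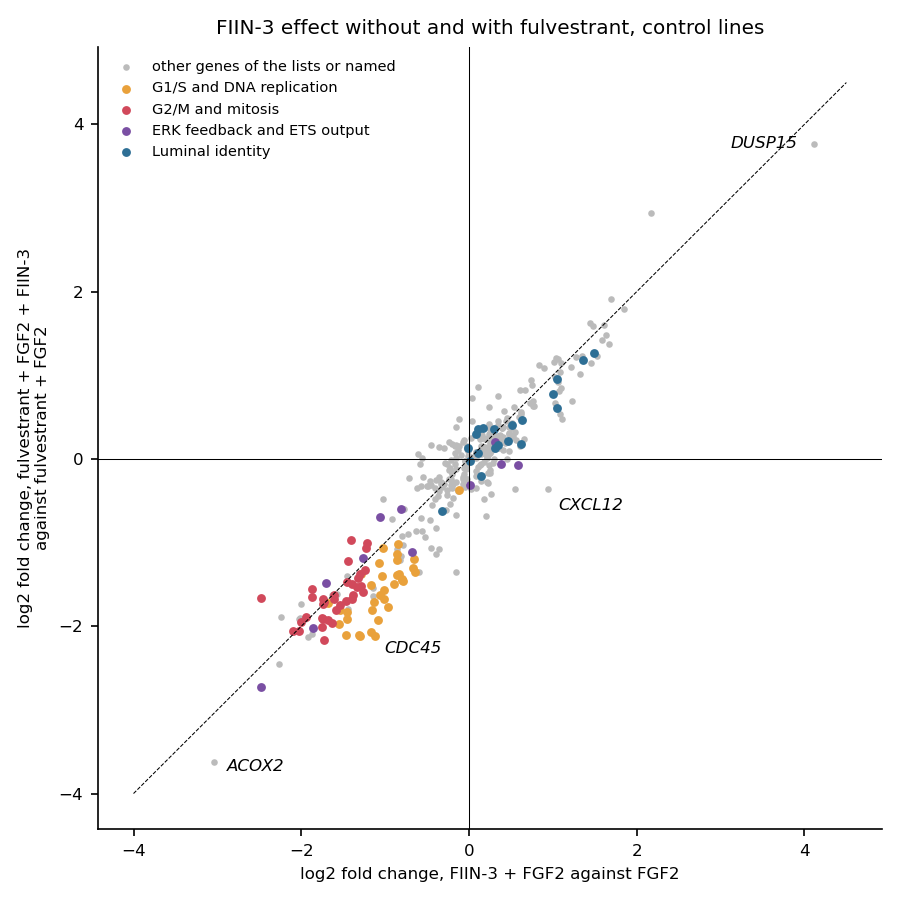
Log2 fold change of FIIN-3 added to FGF2 (horizontal) and to fulvestrant plus FGF2 (vertical) for the genes of the lists and others named in the text that both comparisons tested, coloured by list; the dashed line marks equal changes. Most points lie near that line, CXCL12 lies to the right of 0 and below 0, and points of the G1/S list lie mostly below the line.

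In lines made to carry a receptor, the response to FIIN-3 on FGF2 was set against that of the control lines. FGFR1 was read at 1047 (497.8 to 1453) CPM in the FGFR1 line with FGF2, against 9.7 (6.4 to 23.5) in the control lines, and FGFR2 at 522.6 (178.1 to 1008) in the wild-type FGFR2 line, against 14.6 (5.65 to 16.9). The interaction was called for 604 of 13599 genes in the FGFR1 line (4.44%, 2.89% with a higher and 1.55% with a lower change than in control lines) and for 504 of 13771 in the FGFR2 line (3.66%, 2.27% and 1.39%). With libraries summed the shares called were 1.13% and 0.755%, and with range as a term 11.7% and 9.14%. Both tests used the same 24 control libraries. PHLDA2, a growth-restraining imprinted gene, went from 24.5 (21.3 to 39.5) to 9.7 (6.25 to 13.9) CPM in control lines, from 118.99 (105.02 to 147.4) to 12.5 (7.44 to 15.3) in the FGFR1 line and from 147.8 (131.5 to 198.2) to 8.9 (5.66 to 11.9) in the FGFR2 line. The difference of changes from control lines was -1.87 ± 0.23 (adjusted p = 1.02e-06) in the former and -2.68 ± 0.25 (adjusted p = 4.92e-09) in the latter. IVL stood at 115.8 (99 to 136.99) CPM with FGF2 in the FGFR1 line and at 16.1 (12.5 to 21.4) in control lines, while with FIIN-3 its levels were 10.6 (9.23 to 13.2) and 6.75 (4.91 to 13); the difference of changes was -2.29 ± 0.23 (adjusted p = 1.29e-08). ST3GAL1, a sialyltransferase, did not pass the test in control lines (-0.12 ± 0.08, adjusted p = 0.322), where it was at 62.5 (44.4 to 84.4) CPM with FGF2, and it stood at 151.3 (144.9 to 168.8) CPM with FGF2 and 53.3 (44.3 to 58.1) with FIIN-3 in the FGFR1 line (difference of changes -1.45 ± 0.13, adjusted p = 1.31e-09). TMEM52B and the collagen COL12A1 had the opposite sign of difference, 2.55 ± 0.22 and 1.53 ± 0.19 in the FGFR1 line. KRT4, which rose in control lines, had a larger positive change in the FGFR1 line, from 1.3 (0.636 to 2.02) to 18.7 (16 to 20.9) CPM (difference of changes 2.28 ± 0.27, adjusted p = 8.38e-07).

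**Figure D5:**
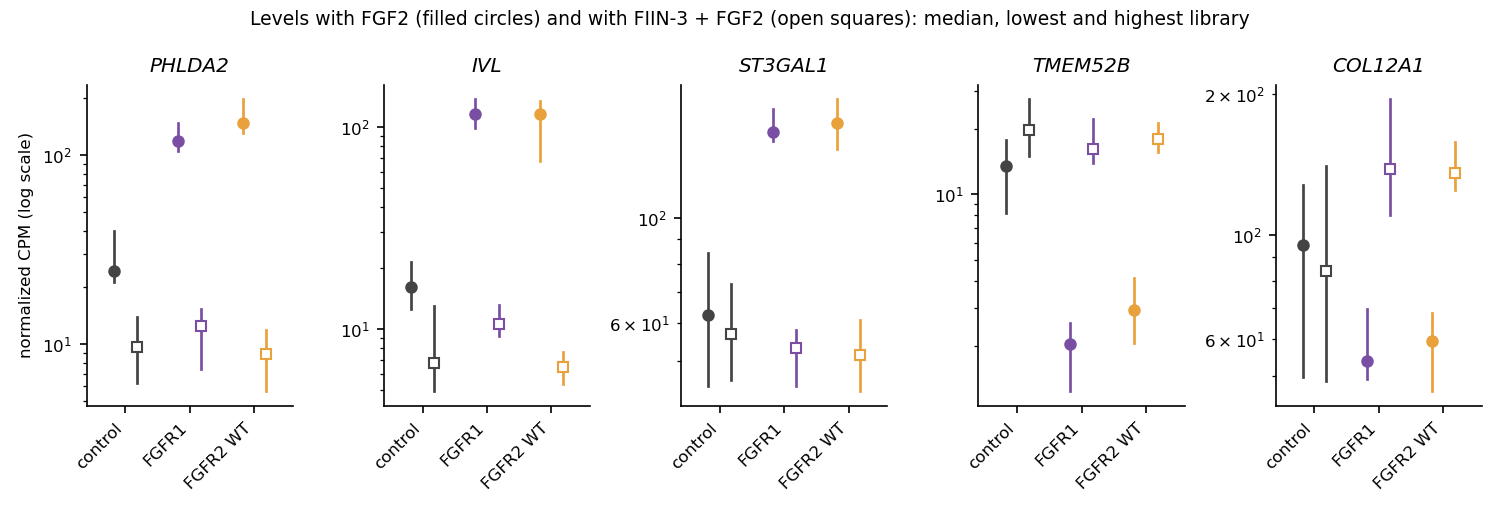
Median and lowest to highest normalized CPM, on log axes that differ between panels, of 5 genes with FGF2 (filled circles) and FIIN-3+FGF2 (open squares) in the control lines (12 libraries an arm), the FGFR1 line (6 and 6) and the wild-type FGFR2 line (6 and 5). The lines differ most with FGF2: PHLDA2, IVL and ST3GAL1 are higher and TMEM52B lower in both receptor lines than in the control lines.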

How the data were processed

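RNA of T47D cells was read by SMART-Seq2. The authors aligned reads with STAR to hg19, per the submitters' processing notes; how reads were counted per gene, and on which annotation, is not given in the sources used here. Of the authors' deposited count table (54592 genes) 82 of 647 columns were used. Of a second deposited table, on the scale log2(TPM + 1), 24 columns entered alternatives. In all, 565 count columns were not used.

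Each of 8 comparisons was fitted on its own libraries in edgeR 4.0.16 under R 4.3.3 (TMM, filterByExpr with a minimum count of 10, glmQLFit, glmQLFTest), with the line as a factor and a Benjamini-Hochberg threshold of 0.05 over all genes tested. Differences between responses were tested as interactions. On simulated counts for the main comparison (12934 genes), 46% of 1.5-fold and 90% of 2-fold changes were recovered, and 6.21% of calls were false. The simulated libraries were independent, with 100 genes changed at each size and no difference between ranges or likeness of neighbours. The rates therefore do not describe error from such effects in the real libraries. Alternatives were DESeq2 1.42.0 (size factors, Wald test), no filter, a minimum count of 50, each line alone, terms for title numbers, limma 3.58.1 on the second table and each library left out. Summing neighbouring libraries, the leave-one-out fits, median centring and no-filter values of the ERK list were added after seeing the data.

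The comparison, its 19 gene lists (410 genes) and the motifs were chosen with earlier results of these data known. Genes named are the 12 per direction of largest change (adjusted p under 0.05, mean log2 CPM of at least 3, same sign in both lines), up to 4 of smallest p per list, members of 5 pathway lists (ERK feedback, FGF receptors, ERBB, cell cycle brakes and estrogen receptor targets), and up to 4 per direction for the interactions and for FIIN-3+FGF2 against DMSO. The values of 2 genes that this rule names are not reported here. Promoters came from RefSeq, matched by symbol. Replicate numbers follow accession order.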

Additional observations from a re-analysis of the deposited data

Results flagged for a closer look

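Of the groups of 6 libraries checked for a library far from the other 5, 6 (5.77%) were marked, where chance marks about 1 in 20. All 6 marks fell in the parental FIIN-3+FGF2 group, so this pooled share does not describe that group. Parental FIIN-3+FGF2 replicate 2 had the lowest total count, 3630065 against 8338096 to 11121900 in the others of its group. The same library had 71.7 CPM of C1orf64 (others 36.4 to 44.4), 8.29 of LRRC8D (25.6 to 35.1) and 12.4 of KLHL24 (21.6 to 25.6). Without it the 3 changes were 1.58, 1.68 and 1.5 on the log2 scale. Replicate 3 of that group had 26.2 CPM of MKI67 (others 32.8 to 35.3), and replicate 1 had 11.1 of KIF14 (2.30 to 5.51), whose change was -2.2 without it.

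Responses to FIIN-3 that differed between groups by the interaction test are given as log2 differences. Under fulvestrant plus FGF2 against FGF2 they were -0.98 for CDC45, -1.28 for CXCL12, -0.64 for SFXN2 and -0.66 for MCM7. In the FGFR1 line against the control lines they were 2.28 for KRT4, 2.55 for TMEM52B, 1.66 for CALD1 and 1.53 for COL12A1, and -2.29 for IVL, -1.45 for ST3GAL1, -1.87 for PHLDA2 and -1.12 for KRT7. In the wild-type FGFR2 line they were 1.94 for TMEM52B, 1.34 for COL12A1, 1.3 for C14orf159 and 1.02 for SLC7A8, and -2.91 for IVL, -1.47 for ST3GAL1, -2.68 for PHLDA2 and -2.10 for SPNS2.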

How the results depend on the processing

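Of the 3227 genes called in the main comparison, 1 had the opposite sign with the range term, 2 in the shared ranges alone and 6 in median-centred limma, none of them past the threshold there, and 0 under the other settings (2678 could be compared at a minimum count of 50). Of the values of named genes under alternatives 4231 stayed on their side of the threshold, 260 lost it and 21 gained it; the cause was not tested. Values of named genes that changed sign belonged to genes that had not passed: CDK6 (0.001 with a term for ranges of title numbers, 0.018 in median-centred limma), FGFR2 (-0.025 in the GFP line alone, -0.023 in limma) and GREB1 (-0.013 in limma). Calls lost in the parental line alone, where fewer libraries entered, included those of CDKN2C, CDKN2D, CCND1, EPHA2, ANXA1, PDZK1 and FADS2 (adjusted p = 0.0683 to 0.397). Counts of calls under other settings are given as percentages of the genes that passed the filter in the same comparison. The main comparison (24.9%) had 7.55% in the parental line alone and 15.6% in the GFP line alone, with fewer libraries in each, 14.7% with neighbouring libraries summed, and 22.3% (2880 genes, without GFP FIIN-3+FGF2 replicate 2) to 26.7% (3447, without parental FGF2 replicate 6) when each of 24 libraries was left out. FGF2 against DMSO (6.12%) had 10.6% without a filter, 9.86% without the library that stood apart and 3.37% with libraries summed. FIIN-3+FGF2 against DMSO (1.52%) had 5.1%, 2.84% and 0.707% under the same settings and 2.92% by DESeq2. The interaction with the GFP line had 0.0151% (2 genes) without a filter. The interaction with fulvestrant (0.0968%) had 0.201% without a filter, 0.194% by DESeq2, 0.268% with the range term and 0.0372% with libraries summed. That with the FGFR1 line (4.44%) had 11.7% with the range term and 1.13% with libraries summed, and that with the FGFR2 line (3.66%) 9.14% and 0.755%.

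Title numbers fell into 3 neighbouring pairs per group, used as a replicate block. Deviations of libraries at the same place in both arms were correlated. For the third pair, in range 4 in both arms, the values were 0.791 (parental) and 0.701 (GFP). For the first, in range 1 in both, they were -0.475 and 0.489. For the second, in range 2 with FGF2 and range 3 with FIIN-3+FGF2, they were -0.515 and -0.476. Whether title numbers pair the libraries was not tested further. With the block 29.1% were called in the main comparison, and the interactions had 0.149% (fulvestrant), 6.8% (FGFR1 line) and 5.71% (FGFR2 line). Within a group, neighbours correlated at a median of 0.47 (12 pairs) and other pairs at -0.40 (48 pairs). The counts of neighbours differed by more than sampling noise (chi-square per gene of 5.85 at least), so they were not the same reads deposited again. Whether they are independent was not tested.

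Depth limits genes such as SPRY4 and ETV4, with at most 26 and 19 reads in any FGF2 library.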
